A study of Mus musculus with 21 samples.

Results

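A set of 265 open-chromatin regions was chosen from the ATAC-seq peaks of mouse endothelium because the count was lower in liver than in both brain and lung. ATAC-seq marks DNA that a transposase can reach, which is mostly promoters and enhancers in use. Values are CPM, the count of a peak scaled to the same total over all peaks in every library. A member was an autosomal peak with a mean of at least 5 CPM in brain and in lung, each mean plus 0.5 at least 2 times the liver mean plus 0.5, and brain and lung within 2-fold of each other. The 265 members were 0.451% of 58796 autosomal peaks, and 1.42% of the 18631 autosomal peaks that met the level and similarity conditions for brain and lung, called eligible peaks here. Since the rule used all ATAC libraries and every contrast between the tissues, the ATAC values below are a description of the members and carry no test.

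The samples were endothelial cells of C57BL/6J mice aged 2 to 4 months, with no treatment or altered gene named, sorted as live CD31-positive cells without PDGFRβ or CD45. ATAC-seq covered 4 brain, 4 lung and 3 liver libraries, and bulk RNA-seq covered 3 libraries of each tissue. Nothing in the labels says whether libraries came from pooled animals, and myelin was removed from brain alone. Counts in peaks ran from 5003580 to 17956240 per brain library, from 1244653 to 6046832 per lung library and from 1856763 to 2175575 per liver library. A pair of lung libraries with no usable number, called lung a and lung b, were the shallowest, at 1335711 and 1244653 counts. Without them the rule found 317 peaks, 229 of them among the 265.

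Liver sinusoidal endothelium has open pores, little basement membrane and a high uptake of waste from blood, and is specified by factors such as Gata4 and Maf. Brain endothelium and the capillaries of lung are continuous: their cells form an unbroken sheet on a basement membrane, sealed most tightly in brain. The members are regions where the brain and lung means were alike and the liver mean was lower. The sort did not select a kind of vessel, so kind of vessel and organ cannot be told apart here. Coordinates follow mm9, with the first base numbered 1. The genes in or near these peaks and their sequences were not analysed here, because the annotation used here is of another build.

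Most members were lower in liver but not closed there. The liver mean was at least 5 CPM, the level that the rule asked of brain and lung, in 163 members (61.5%), and 1 member was below 1 CPM. A further 14 lay between 1 and 2 CPM, 87 between 2 and 5, 72 between 5 and 10, 58 between 10 and 20, 31 between 20 and 50 and 2 above 50. The median liver mean was 6.71 CPM, against 19.2 CPM in brain and 19.9 CPM in lung. In bulk libraries, fewer cells with a site open and less opening per cell cannot be told apart.

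In CPM the members sat above the typical autosomal peak in brain and lung and close to it in liver. The rule's floor of 5 CPM in brain and lung favours the former. All eligible peaks, which share that floor, had median means of 20.7 CPM in brain, 21.5 in lung and 23.4 in liver. The members' were 19.2, 19.9 and 6.71 CPM, so beside eligible peaks they were low in liver alone, as the rule asks. By library, the members' median was 19.5, 22.7, 19.0 and 17.7 CPM in brain libraries 1 to 4. The median of all autosomal peaks there was 3.86 to 6.27 CPM. It was 19.8 and 22.7 CPM in lung libraries 1 and 2 and 17.2 and 17.7 CPM in lung a and b, against 4.44 to 5.79 CPM for all autosomal peaks. In liver libraries 1 to 3 it was 7.40, 6.44 and 7.00 CPM, against 7.40, 6.44 and 8.62 CPM for all autosomal peaks. The members took 0.788% to 0.826% of the counts of a brain library, 0.731% to 0.834% in lung and 0.256% to 0.297% in liver. Per kilobase of peak, the median mean of brain and lung was 33.2 CPM at the members and 13.9 CPM at all autosomal peaks, and that of liver 10.8 and 18.2 CPM.

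**Figure D1:**
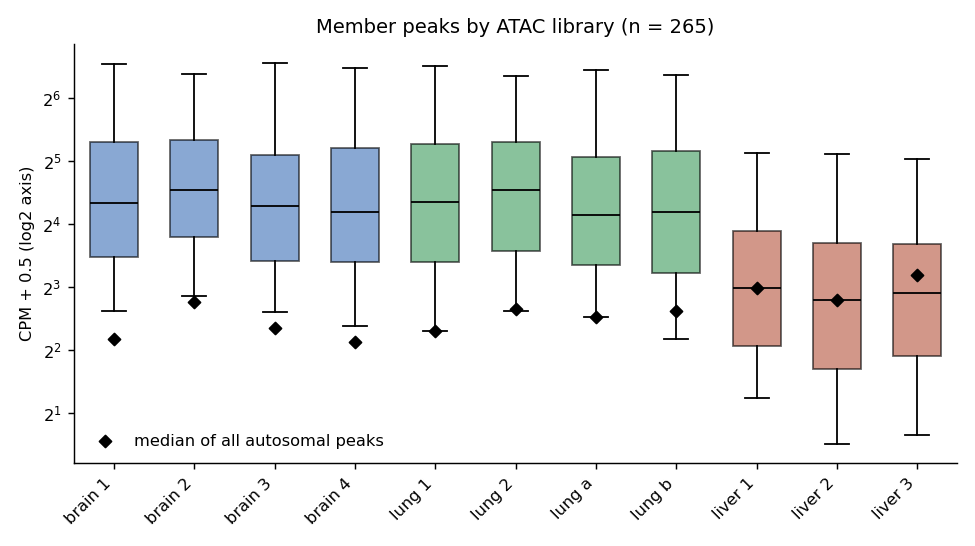
CPM + 0.5 of the 265 members in each ATAC library on a log2 axis; boxes span the quartiles with the median as a line, whiskers the 5th to 95th percentile, and diamonds give the median of all autosomal peaks. The diamonds lie below the boxes in every brain and lung library and inside the box in the 3 liver libraries.

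The size of the difference was mostly near the limit of the rule. The lower of brain and lung stood at 2 to 2.5 times liver in 174 members (65.7%), at 2.5 to 3 times in 51, at 3 to 4 times in 29, at 4 to 5 times in 7 and at 5 times or more in 4. The median was 2.33 and the largest 9.96. The 3 members nearest the limit had ratios of 2.00216, 2.00317 and 2.00382. These were chr9:123754182-123754577, with 5.403 CPM in brain, 5.12 in lung and 2.31 in liver, chr7:6680155-6681801, and chr8:107812860-107813671, with 39.6, 50.04 and 19.5 CPM. The 3 eligible peaks nearest outside were chr3:136938329-136938813 at 1.99874 (15.7, 16.3 and 7.62 CPM), chr1:80209689-80210858 at 1.99787 (44.9, 35.5 and 17.5 CPM) and chr5:5342348-5343663 at 1.98856 (36.5, 36.7 and 18.1 CPM). The values on both sides of the limit are alike, so the edge of the set is a matter of the number chosen.

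**Figure D2:**
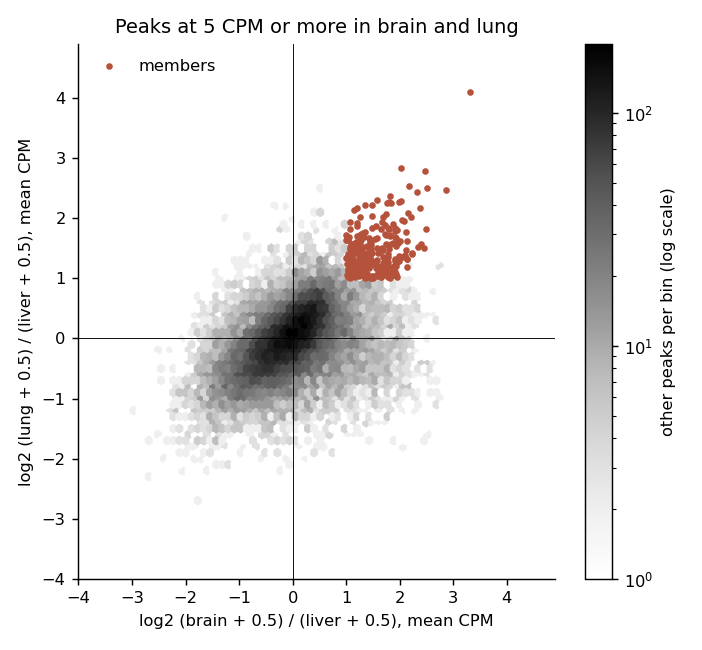
Log2 ratio of brain to liver (x axis) and of lung to liver (y axis), from mean CPM + 0.5, for autosomal peaks with at least 5 CPM in brain and lung; grey bins count other peaks and red points are the 265 members. The members crowd at the corner where both ratios are just over 2-fold, and a single peak, on chromosome 2, lies far from the rest.

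Over the full set of 11 libraries, most members had no overlap between liver and the other beds. In 219 of the 265 (82.6%) all brain and lung libraries exceeded all liver libraries, against 2.04% of all autosomal peaks, and the rule used these same values. By edgeR's quasi-likelihood test over 58293 peaks (adjusted p under 0.05 and at least 2-fold), 264 members were called higher in brain than in liver, where 13.1% of all peaks were. The test called 257 higher in lung than in liver (5.5% of all peaks) and 257 higher in both (1.31% of all peaks). Both contrasts share the liver libraries, and nothing is read from these counts because the rule chose on them. The median log2 fold change of the members was 1.87 for brain over liver (median SE 0.34) and 1.67 for lung over liver (median SE 0.34), where that of all peaks was −0.12 and −0.08. With scaling by library size alone the members' medians were 1.54 and 1.45, and those of all peaks −0.44 and −0.29. The number of members depended on the same choice: CPM scaled by TMM, which corrects for a few regions taking many counts, gave 585 peaks by the rule, 262 of the 265 among them.

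The level was also read in libraries that took no part in the choice. The means of the other tissues that each was set against were still those the rule had chosen on. The other eligible peaks given for comparison had failed the 2-fold limit against liver in the libraries kept, so they are no independent baseline. Members were chosen again without each library in turn, which gave 241 to 374 peaks, and 275 to 374 where the library was from liver. The lower of brain and lung was then at least 2 times the liver library left out in 39.7% (liver 1), 56% (liver 2) and 39.6% (liver 3) of the peaks chosen, against 1.83% to 3.24% of the other eligible peaks. That library lay below both other tissues in 92.5%, 95.3% and 87.4%, against 37.4% to 38.6% of the other eligible peaks. A brain library left out was at least 2 times the liver mean in 71.6% to 88.8% of the peaks chosen. A lung library was so in 57.9% to 87.1%, the lower values coming from lung b at 57.9% and lung a at 59.1%. In the other eligible peaks these shares were 2.45% to 5.02% for brain and 2.78% to 3.7% for lung. The set was less steady than its size: 128 of the 265 (48.3%) met the rule whichever library was left out, and liver 2 cost the most members, 64.

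Brain and lung were bounded within 2-fold of each other, and within that bound the members were spread to both sides. Brain was the higher in 145 members (54.7%) and lung in 120, and the ratio of brain to lung had quartiles of 0.852 and 1.30. Its median was 1.04, against 0.955 over all eligible peaks (quartiles 0.782 and 1.18). This difference was not tested. The edgeR test called 5 members between brain and lung, all higher in brain, against 30.8% of all peaks called in either direction. Nothing is read from this count, because the rule had already held brain and lung within 2-fold, up to a ratio of 1.93, and a call needs at least 2-fold in the fit's own scaling. They are named here after their values were seen. These were chr13:71514926-71515608, at 15.96 ± 4.56 CPM in brain and 8.72 ± 5.56 in lung, chr14:100633843-100634410 (19.6 ± 3.49 and 9.98 ± 5.17), and chr4:95150205-95150827 (51.4 ± 13.7 and 27.0 ± 6.31; SD, n = 4 throughout). The others belong to neighbouring members on chromosomes 15 and 6 described further on. This count rose to 10 without brain library 1 or 2, to 8 without brain library 3 or 4, lung library 2 or lung b, to 11 without lung a and to 15 without lung a and b.

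The member with the largest ratio, 9.96, was a 305-base peak at chr2:22445126-22445430 and did not follow tissue. Brain libraries 1 and 2 had 45.1 and 46.4 CPM and lung libraries 1 and 2 had 101.2 and 58.9 CPM. Brain libraries 3 and 4 had 0.799 and 1.14 CPM, lung a and b had 1.497 and 0 CPM, and liver libraries had 2.77, 1.84 and 1.08 CPM. Brain 3 and 4 and lung a and b thus lay no higher than the liver range, and the peak met the rule through 4 libraries. It was the only member that edgeR called in neither contrast with liver. Of 58796 autosomal peaks it was the only one in which brain 1 and 2 and lung 1 and 2 all exceeded brain 3 and 4 and lung a and b by 4-fold, and none showed the reverse.

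The next 5 by ratio separated the tissues in every library. A 334-base peak at chr11:98612516-98612849 had the lowest liver level of all members: 7.07, 9.25, 4.60 and 3.72 CPM in brain, 6.32, 3.31, 7.49 and 7.23 CPM in lung, and 0, 0.919 and 1.08 CPM in liver. Its liver value rests on 4 reads over 3 libraries, a pooled 0.646 CPM with an exact Poisson 95% interval of 0.176 to 1.65 CPM, which like the others here covers counting error only. This is the member that comes nearest to closed in liver, and it is a weak peak in the other beds too. The peak at chr4:48601485-48601888 (404 bases) had 17.8, 22.4, 22.8 and 14.01 CPM in brain, 18.8, 19.0, 10.5 and 9.64 CPM in lung and 3.24, 2.30 and 1.08 CPM in liver. Its lowest lung library, lung b, lay above its highest liver library, liver 1, but these values rest on 12 and 7 reads. The lung values fell into a higher and a lower pair, the lower being lung a and b, with 14 and 12 reads.

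Among strong peaks the contrast was clearest at 3 regions. The one at chr16:85748058-85748686 (629 bases) had 28.5, 36.7, 45.4 and 36.6 CPM in brain, 50.9, 50.1, 48.7 and 35.4 CPM in lung, and 10.2, 6.44 and 2.15 CPM in liver. The liver libraries differed among themselves, and the highest of them lay below the lowest brain library by more than the whole liver range. At chr10:125162395-125163293 (899 bases) the libraries had 79.7, 59.7, 102 and 85.9 CPM in brain, 90.8, 80.7, 104 and 79.5 CPM in lung and 15.7, 21.1 and 11.3 CPM in liver. At chr8:55478253-55479751 (1499 bases) they had 75.5, 81.2, 135 and 102 CPM in brain, 81.3, 81.4, 77.1 and 103 CPM in lung and 24.5, 16.5 and 14.5 CPM in liver. Neither peak came near to 0 in liver: the pooled liver level was 16.3 CPM (exact Poisson 95% interval 13.3 to 19.8) and 18.7 CPM (15.5 to 22.5). All 5 met the rule whichever library was left out.

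**Figure D3:**
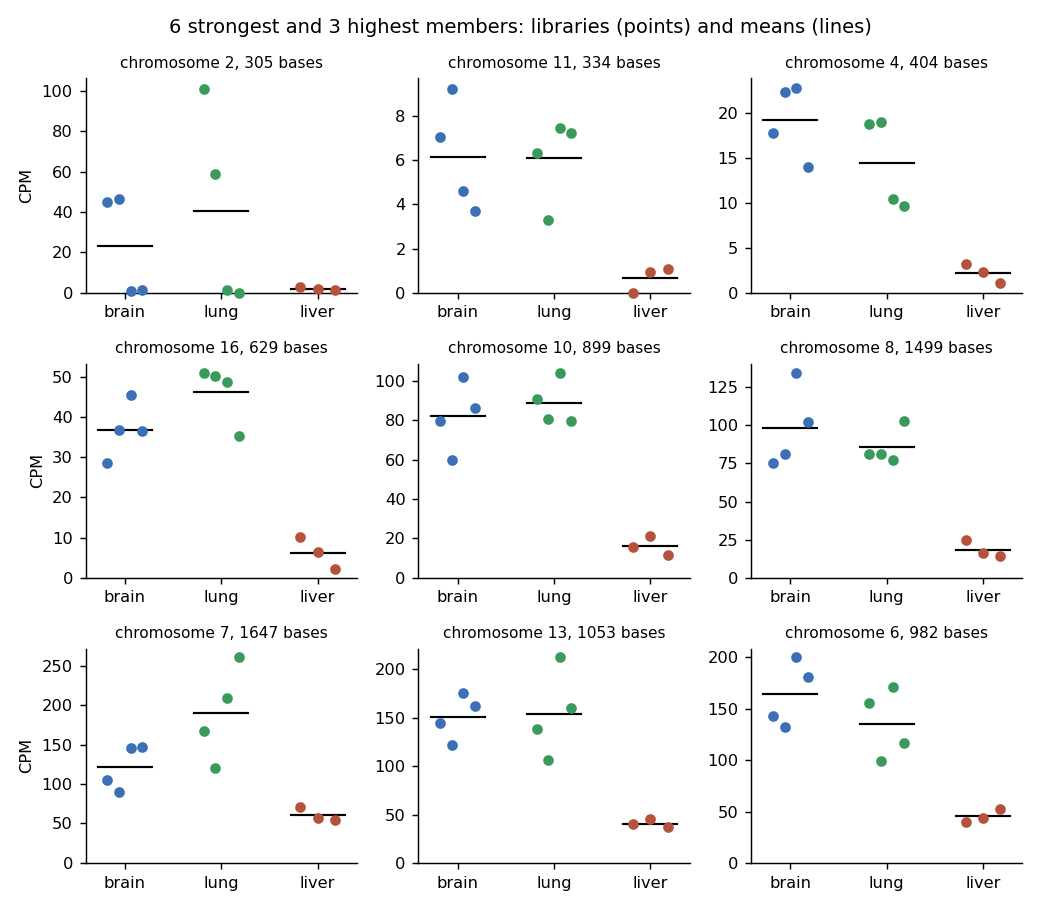
CPM of each library (points, in library order within a tissue) and tissue means (lines) for the 6 members with the largest ratio to liver, by rank from the upper left, and the 3 with the highest level in brain and lung (bottom row); each panel has its own axis from 0. The chromosome 2 panel splits within brain and within lung, and in the other 8 panels every liver point lies below every brain and lung point.

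The 3 highest members had liver means of 40.7 to 60.6 CPM. Their ratios to liver were 2.00, 3.69 and 2.96, where the median of all members was 2.33. The highest, chr7:6680155-6681801 (1647 bases), had 121.9 ± 28.8 CPM in brain, 189.4 ± 59.9 in lung (SD, n = 4) and 60.6 ± 8.45 in liver (SD, n = 3), which was also the highest liver level of any member. It stood at the edge of the rule and fell out of the set without brain library 3, brain library 4, liver library 2 or liver library 3. The peak at chr13:84487449-84488501 (1053 bases) had 145, 122, 176 and 163 CPM in brain, 138, 107, 213 and 160 CPM in lung, and 39.8, 45.1 and 37.2 CPM in liver. Its ratio, 3.69, was the largest of these 3 and its liver libraries were close together. At chr6:112351706-112352687 (982 bases) the means were 164 ± 32.0 CPM in brain, 136 ± 33.7 in lung and 45.5 ± 6.13 in liver. In all 3 the groups did not overlap between liver and the other beds.

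Members were of middle width among the eligible peaks. The median width was 624 bases (quartiles 465 and 791), against 672 bases for all eligible peaks and 409 bases for all autosomal peaks, and a higher level goes with a wider peak. Across the 265 members, width and brain mean had a Spearman correlation of 0.84, and width and the ratio to liver one of −0.09. Across the other eligible peaks these were 0.78 and 0.30, and the rule cuts the members' ratio off at 2. The brain and lung means correlated at 0.93 and the brain and liver means at 0.94 (Spearman, n = 265 members measured in the same libraries). The rule bounds these levels against each other, and the other eligible peaks gave 0.94 and 0.90 for the same pairs. The widest member, chr8:123606865-123608522 (1658 bases), had 66.4 ± 15.4 CPM in brain, 133 ± 44.4 in lung and 29.7 ± 11.3 in liver. The narrowest, chr19:53114862-53115073 (212 bases), had 5.65 ± 1.59, 5.11 ± 3.46 and 1.13 ± 1.15 CPM, with 0 reads in lung b and in liver 1, and 7 reads over the liver libraries.

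Members were found on all 19 autosomes and mostly stood alone. Their share of the eligible peaks ran from 0.844% on chromosome 11 (12 of 1422) to 2.12% on chromosome 15 (17 of 803). Of the members, 22 (8.3%) had another within 50 kb, in 11 pairs, and none stood in a larger group. The same count was not made for other sets of peaks, so whether members lie closer together than others was not tested. The gap between the peaks of a pair ran from 608 bases, on chromosome 4, to 42332 bases, on chromosome 17.

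The pair with the highest level lay 6132 bases apart on chromosome 2. At chr2:164692240-164693195 the libraries had 97.2, 74.5, 57.2 and 67.2 CPM in brain, 74.1, 76.6, 53.9 and 67.5 CPM in lung and 20.8, 23.0 and 17.8 CPM in liver. At chr2:164699328-164700341 they had 128, 100.3, 69.2 and 85.5 CPM in brain, 81.4, 56.2, 44.9 and 54.6 CPM in lung and 32.8, 19.8 and 16.2 CPM in liver. Among brain libraries both peaks were highest in library 1 and lowest in library 3, and at neither did liver overlap the other beds.

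The pair on chromosome 15, 19600 bases apart, held a stronger and a weaker peak. The peak at chr15:98011474-98012184 was alike in brain (78.1 ± 14.8 CPM) and lung (98.7 ± 14.05), with 32.2 ± 7.98 in liver. The weaker peak at chr15:97991137-97991873 had 15.3 ± 1.58 CPM in brain, 8.57 ± 3.41 in lung and 4.00 ± 0.697 in liver. On chromosome 6, 21718 bases apart, chr6:117387593-117388437 had 83.5 ± 9.47 CPM in brain, 43.1 ± 10.6 in lung and 18.5 ± 4.32 in liver, and chr6:117410156-117410737 had 14.7 ± 5.11, 17.6 ± 5.67 and 3.23 ± 2.32 CPM.

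Peaks near a member leaned the same way although few met the rule's fold. Peaks other than members with their centre within 10 kb of a member's numbered 431, next to 201 of the 265 members (75.8%). Their median log2 ratio of liver to the mean of brain and lung was −0.20 (quartiles −0.67 and 0.27). Around the other eligible peaks it was 0.15 at the same distance, and over all other autosomal peaks 0.24. At 10 to 50 kb from members the median was 0.04, against 0.21, and at 50 to 200 kb 0.19, against 0.23, so the lean narrowed with distance. By library, the median of the 431 peaks against their own mean of brain and lung was −0.28, −0.36 and −0.19 in liver, −0.24 to 0.21 in brain and −0.24 to 0.11 in lung. Brain 4 and lung a were thus lower at these peaks than liver 3, and the ranges of liver and the other beds overlap. A 2-fold lower level in liver than in both beds was met by 6 of the 431 (1.39%), against 0.357% of all other autosomal peaks.

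**Figure D4:**
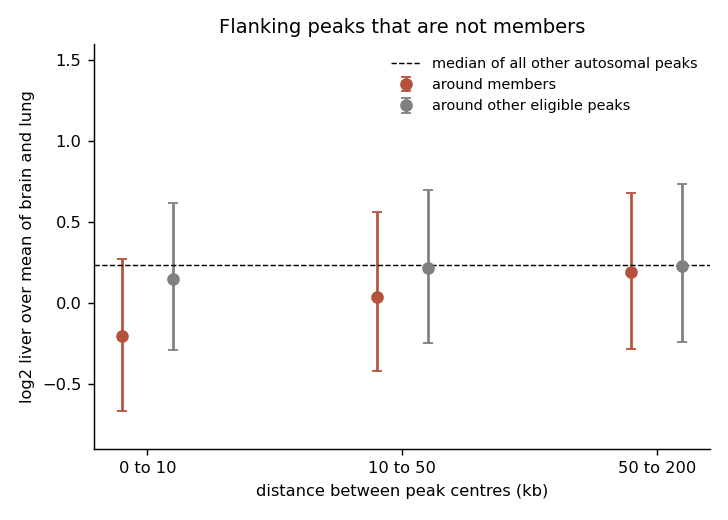
Log2 ratio of liver to the mean of brain and lung, from mean CPM + 0.5, at peaks that are not members, by distance of their centre from a member (red) or from another eligible peak (grey); points are medians, bars quartiles, and the dashed line the median of all other autosomal peaks. The red median is −0.20 within 10 kb and 0.19 at 50 to 200 kb, next to 0.15 and 0.23 in grey.

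The same rule with the tissues exchanged found more peaks for the other beds: 3315 lower in brain and 1162 lower in lung. In those classes the median low tissue was 2.75 and 3.45 CPM, against 6.71 CPM for the members in liver, and it was under 5 CPM in 80.9% and 68.1%, against 38.5%. Peaks of those classes were also weaker where open. The lower of the open tissues had a median of 8.56 and 9.42 CPM, against 17.8 CPM for the members, so the low levels alone do not rank the classes by closing. The median fold over the low tissue was 2.67 and 2.45 against 2.33, and 3-fold or more was reached by 36.5% and 23.7% against 15.1%. Median widths were 435 and 539 bases against 624. With CPM scaled by TMM the classes numbered 2420 in brain, 784 in lung and 585 in liver, so the order of the 3 stayed and the gap narrowed. These differences were not tested.

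RNA from separate libraries showed which transcription factors were higher in brain and lung than in liver, although no peak is tied to a gene here. Unlike the rule for members, these calls did not ask that brain and lung be within 2-fold of each other. A list of 65 factors known in endothelium was measured, all of which passed the count filter. The edgeR quasi-likelihood test over 13216 genes called 24 higher in brain than in liver (7.45% of all genes) and 9 lower (8.72%). It called 23 higher in lung than in liver (8.04%) and 9 lower (7.02%). In both contrasts, which share the liver libraries, 17 were higher (3.59% of all genes) and 6 lower (3.71%), none was called in opposite directions and 23 were called in neither. The median log2 fold change of the list was 0.63 for brain over liver and 0.89 for lung over liver, against 0.01 and 0.00 for all genes.

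The 17 factors higher in both beds belong to several families, and other listed members of those families were not called so. Tcf7l1 and Gata4 were lower in both beds. Foxc1, Foxq1, Klf6 and Tbx1 were called higher in brain alone, and Gata3 in lung alone. Tcf7l2, Hey2, Heyl, Hes1, Foxo1, Gata6 and Meox2 were called in neither contrast. Foxf1, a forkhead factor of lung mesenchyme and vessels, had 36.0, 102 and 104 CPM in brain, 714, 836 and 798 CPM in lung and 0, 0 and 0.941 CPM in liver. Its log2 fold change was 7.84 for brain over liver (SE 1.09, edgeR adjusted p = 0.000723) and 11.05 for lung over liver (SE 1.21, edgeR adjusted p = 0.000203). Tbx3, a T-box repressor, had 198, 236 and 215 CPM in brain, 713, 809 and 770 CPM in lung and 0.27, 3.35 and 1.45 CPM in liver (log2 fold changes 6.68 and 8.44, edgeR adjusted p = 4.68e-05 and 1.88e-05). Both factors were all but missing from liver and highest in lung, with no overlap between tissues. Hey1, a Notch target that represses transcription, was at a like level in both continuous beds, 118 ± 13.3 CPM in brain and 128 ± 38.5 in lung, against 4.33 ± 1.64 in liver (SD, n = 3; log2 fold changes 4.51 and 4.59, edgeR adjusted p = 2.05e-05 and 2.48e-05).

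For other factors the difference was met unequally by the beds. Foxf2, a forkhead factor of brain vessels, had 165 ± 16.1 CPM in brain, 2.69 ± 1.74 in lung and 0 counts in the 3 liver libraries. Against a floor of 3 counts over the liver libraries this was at least 3685-fold higher in brain and at least 48.8-fold higher in lung. Lef1, a nuclear effector of Wnt signalling, had 565 ± 25.6 CPM in brain, 7.22 ± 3.37 in lung and 0.807 ± 0.205 in liver. Tcf7, another such effector, had 110.4 ± 35.3, 28.1 ± 8.71 and 1.05 ± 1.19 CPM. Prdm1, a zinc-finger repressor, had 61.9 ± 29.7 CPM in brain, 125 ± 6.94 in lung and 4.07 ± 2.43 in liver, and Meox1, a homeobox factor, had 8.03 ± 6.83, 25.1 ± 7.11 and 0.389 ± 0.627 CPM. All 5 were called in both contrasts by edgeR. The rest of the 17 were Klf2, Klf4, Gata2, Foxp1, Epas1, Fos, Fosl2, Jun and Junb, among them 4 subunits of the AP-1 complex.

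The 6 factors lower in both beds included Gata4 and Maf, named above as factors that specify the sinusoid, and 4 others. Gata4 had 0 counts in brain, 1 count in lung and 494, 913 and 558 CPM in liver, at least 12522-fold lower in brain than in liver against a floor of 3 counts over the brain libraries. Maf had 4.66 ± 1.20 CPM in brain, 5.68 ± 2.25 in lung and 1611 ± 218 in liver (log2 fold changes −8.63 and −8.46, edgeR adjusted p = 3.05e-08 and 5.77e-08). Nr2f2, a venous and lymphatic nuclear receptor, had 27.1 ± 7.96, 6.75 ± 3.83 and 238 ± 73.5 CPM, and Tcf7l1, a mostly repressive Wnt effector, had 19.2 ± 6.94, 13.97 ± 5.74 and 145 ± 55.9 CPM. The others were the ETS family factors Ets1 (307 ± 11.6, 333 ± 69.5 and 854 ± 83.1 CPM) and Elf1 (109.9 ± 38.3, 85.9 ± 11.7 and 212 ± 22.2 CPM).

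Erg, Fli1, Sox17 and Sox18, also on the list, did not share 1 pattern. Erg, an ETS factor that keeps endothelial identity, had 401 ± 75.3 CPM in brain, 350 ± 75.9 in lung and 621 ± 128 in liver and was called lower in lung than in liver (log2 fold change −1.10, SE 0.29, edgeR adjusted p = 0.0201), with −0.86 for brain over liver (edgeR adjusted p = 0.0561). Fli1 was called higher in brain than in liver (220 ± 32.5 against 86.5 ± 29.1 CPM, edgeR adjusted p = 0.0134) and had 125 ± 18.5 CPM in lung. Sox17 was called higher in brain (371 ± 116 against 72.3 ± 49.4 CPM, edgeR adjusted p = 0.00479) and Sox18 in lung (332 ± 162 against 128 ± 11.5 CPM, edgeR adjusted p = 0.0458). In the other bed Sox17 had 84.4 ± 15.5 CPM (lung) and Sox18 had 224 ± 55.6 CPM (brain). Whether Fli1, Sox17 and Sox18 differ from liver more in one bed is the contrast of brain with lung, whose result is not reported here.

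**Figure D5:**
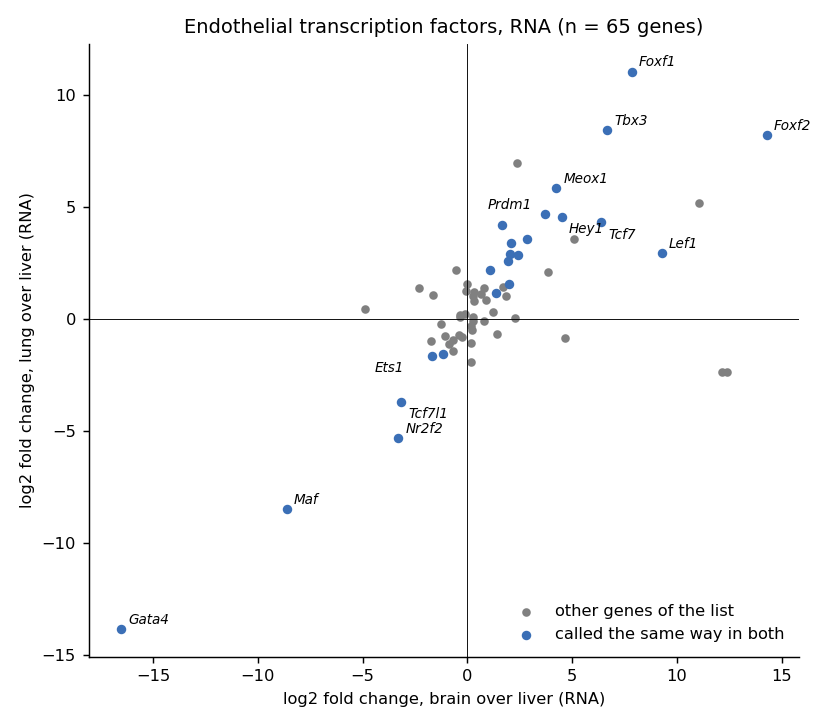
RNA log2 fold change of 65 endothelial transcription factors, brain over liver (x axis) and lung over liver (y axis), from the edgeR fit; blue points were called in the same direction in both contrasts and some of these are named. Foxf1, Tbx3 and Hey1 lie in the upper right and Gata4 and Maf in the lower left; values of genes with 0 counts in a tissue, such as Foxf2 and Gata4, depend on the fit's prior count and are no measure of size.

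Markers of endothelium were high in all RNA libraries, with a summed level of 6 genes of 6269 to 6868 CPM in brain, 8458 to 11265 in lung and 4591 to 4782 in liver. The 5 sinusoidal markers summed to 6193 to 7136 CPM in liver, 926 to 1233 in lung and 18.1 to 38.4 in brain. Of other cell types, 5 hepatocyte markers summed to 225 to 567 CPM in liver, and 5 lung epithelium markers to 302 to 1793 CPM in lung. In brain the hepatocyte list summed to 46.1 to 961 CPM with 4 of its 5 genes at 0, among them Alb, while Ttr, also made by choroid plexus, was not. The 4 Kupffer cell markers measured summed to 1.28 to 4.88 CPM in liver, and 5 leukocyte markers to 57.2 to 121 CPM in lung and 5.90 to 19.1 CPM in liver. In brain, 4 erythroid markers summed to 30.5 to 259 CPM and 5 mural cell markers to 16.2 to 122 CPM, and in liver the mural list summed to 17.9 to 104 CPM with Pdgfrb at 0. The part of these cells in the RNA or ATAC differences was not tested, and the ATAC libraries hold no such markers.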

How the data were processed

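For ATAC-seq the authors deposited read counts over 60119 peaks, a single set whose identifiers, per the file headers and rows, name a lung 3 library as left out. For RNA-seq they deposited unscaled read counts for each gene symbol. Per the submitters' processing notes, tools included MACS2, Picard, HTSeq 0.6.1, SAMtools 1.10.2, bedtools, Bowtie2 and TopHat, with builds mm9 and mm10; none is tied to an assay. Chromosome names such as chr1_random occur in mm9 and not in mm10. Peak width equalled end minus start in every row, so 1 was added to starts. The single-cell table was not used here. Lung columns numbered 4 and 5 entered as lung a and b.

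Members and lists were chosen with earlier results of these data known, and the flanking peaks, the library split and the pattern counts were added after values were seen. The rule was applied to CPM by column total, with a pseudocount of 0.5. Tests used edgeR 4.0.16 in R 4.3.3 (filterByExpr, TMM, 1 robust quasi-likelihood fit per assay with a mean per tissue), adjusted by Benjamini-Hochberg over all features, and called at an adjusted p under 0.05 with a log2 fold change of 1 or more in either direction. The fit was tested on simulated data. Alternatives were other scalings, DESeq2 1.42.0, no filter, a replicate block, each library left out, and other limits of the rule. SDs are over libraries. Named peaks were the 6 members with the largest ratio, the 3 highest, the 3 on each side of the limit, the 3 highest pairs, the widest, the narrowest and the highest in liver; named genes were, per direction, up to 8 listed factors called in both contrasts with the largest smaller fold, and Erg, Fli1, Sox17, Sox18, Gata4 and Maf. The labels call RNA libraries biological replicates, and nothing used here says so of ATAC libraries, whose p-values may rest on technical spread alone. In liver, 1 CPM is 1.86 to 2.18 reads of a library, and the pooled liver count of a member had a median of 42 and a minimum of 4.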

Additional observations from a re-analysis of the deposited data

Results flagged for a closer look

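In 5 of 44 groups of 4 brain or 4 lung libraries, over the named peaks, a single library stood apart from the other 3 by Dixon's criterion; chance alone flags about 1 group in 20. At chr16:85748058-85748686 lung b was the lowest lung library, at 35.4 CPM, and at chr8:55478253-55479751 it was the highest, at 103 CPM. At chr8:107812860-107813671 lung a was the lowest, at 30.7 CPM, and at chr6:117387593-117388437 lung b was, at 27.3 CPM. At chr1:80209689-80210858, which lies just outside the rule, brain library 3 was the highest brain library, at 49.8 CPM. Of these, 4 involve the shallow libraries lung a and b, and their part in the values was not tested.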

How the results depend on the processing

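The number of members stayed within 1.5 times 265 under other pseudocounts (304 at 0.1, 229 at 1), a minimum of 10 CPM (188), a demand that no library overlap (219) and without lung a and b (317); leaving out a library gave 241 to 374. It was 40 at a minimum fold of 3 and 585 with TMM-scaled CPM, which lowers liver CPM against the other tissues. The counts of members called against liver stayed within 1.5 times under every alternative run. The 5 members called between brain and lung became 11 with DESeq2 size factors, 3 with library size alone, 12 with the DESeq2 Wald test and 15 without lung a and b; leaving out a library gave 4 to 11. The counts of transcription factors stayed within 1.5 times under every alternative run. The main fit used no pairing by replicate number. Deviations of same-numbered ATAC libraries correlated at −0.175 to 0.115 and those of RNA libraries at −0.00325 to 0.0779. Libraries with different numbers were not compared in this way, so these values cannot decide whether the samples were paired. A replicate block on the numbered libraries gave 12 members called between brain and lung and 231 called against liver in both. The rule's fold rests on few reads for weak members, with a lower quartile of the pooled liver count of 23.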

Other observations

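Outside the autosomes, 8 peaks of chromosome X met the other conditions of the rule. The standard deviation between libraries of log2(CPM + 0.5) at the members had a median of 0.28 in brain, 0.35 in lung and 0.44 in liver. Among the 265 members, 3 had 0 reads in lung b, and 3, 6 and 4 had 0 reads in liver libraries 1, 2 and 3.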
